A study of Mus musculus with 8 samples.

Results

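At 30 min of oncostatin M, 1447 genomic sites were listed for STAT3α that were not listed for STAT3β. A site belonged to this set when its interval in the STAT3α 30 min peak list had no interval of identical chromosome, start and end in the STAT3β 30 min peak list. The members were thus chosen by the pair of 30 min lists, and their presence in one list and absence from the other is their definition and not a finding. They made up 38.8% of the 3725 STAT3α sites at 30 min. Of all 5338 sites listed at 30 min they were 27.1%. The remainder comprised 2278 sites listed for both spliceforms and 1613 listed for STAT3β alone.

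STAT3 is a latent transcription factor of the cytoplasm. Cytokines of the interleukin-6 family, oncostatin M among them, bind receptors that contain gp130 and activate JAK kinases, which phosphorylate STAT3 on a tyrosine near its C terminus. Phosphorylated STAT3 dimerises, enters the nucleus and binds short palindromic DNA elements, often in enhancers and promoters. Alternative splicing gives the full-length STAT3α and the shorter STAT3β, which keeps the DNA-binding domain and the tyrosine but has a short unique tail in place of the C-terminal transactivation domain. Induced STAT3 targets include feedback inhibitors of the same pathway, so that binding after a cytokine pulse is commonly transient.

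The cells were mouse embryonic fibroblasts of genotype STAT3-/-, without endogenous STAT3, that re-expressed either STAT3α (iSTAT3α) or STAT3β (iSTAT3β) from an inducible construct kept under puromycin selection. Chromatin bound by tyrosine-phosphorylated STAT3 was immunoprecipitated and sequenced (ChIP-seq) after 0, 30 or 180 min with 10 ng/mL human oncostatin M. All cells had received 1 nM 4-hydroxytamoxifen for at least 48 h and no serum for 16 h, the 0 min cells included. There was 1 cell line per spliceform. Per the labels, reads were merged, so each of the 6 ChIP groups had 1 list. No value below therefore has a replicate error, and spliceform, cell line and library cannot be told apart. The lists held 9, 3725 and 40 peaks for STAT3α and 12, 3891 and 120 peaks for STAT3β at 0, 30 and 180 min. They give positions only. Sequencing depth and peak strength are unknown, and a site missing from a list is not shown to be unbound. The intervals given with shares are 95% intervals by the exact Clopper-Pearson method. They cover the counting of sites only and treat neighbouring sites as independent. Positions are on mm9 and count from 1. A gene annotation or genome of mm9 was not used here, so loci are given by position, without gene names or sequence.

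The members were uniform intervals of 400 bp and together covered 578.8 kb. All but 8 of 2278 sites of both and 4 of 1613 STAT3β-alone sites had this width too, so it is not particular to the members. No member overlapped a STAT3β interval in part. Intervals common to the 30 min lists had identical coordinates, so this follows from how the lists were built and is no property of the members. The member closest to a STAT3β-alone site lay on chromosome 11 at 86571347 to 86571746, and the STAT3β-alone interval at 86570924 to 86571323 ended 23 bp before it. A second such pair was found on chromosome 1, where the member at 138592604 to 138593003 was followed after 53 bp by the STAT3β-alone interval at 138593057 to 138593456. On chromosome 19, the member at 34267045 to 34267444 was separated by 101 bp from the STAT3β-alone interval at 34267546 to 34267945. In these 3 pairs the spliceforms were listed side by side, with gaps shorter than the sonicated fragments, stated in the labels as 200 to 500 bp, and counted as separate sites. Such pairs were rare. Within 400 bp of a STAT3β-alone site lay 12 members (0.829%, interval 0.429 to 1.44%), and within 400 bp of a site of both spliceforms lay 13 (0.898%, interval 0.479 to 1.53%). Together 25 members (1.73%, interval 1.12 to 2.54%) had any STAT3β interval within 400 bp, so that 1422 would remain if such neighbours were counted as the same site. Beyond 1 kb from every STAT3β interval lay 1396 members. Another member lay within 400 bp of 16 members (1.11%). Neighbours this close were rare for each kind of site. Any other 30 min site lay within 1 kb of 5.25% of members, 5.79% of sites of both and 6.51% of STAT3β-alone sites.

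STAT3α-alone sites were found on all 20 chromosomes that carried 30 min sites, from 29 on chromosome 18 and 31 on chromosome X to 124 on chromosome 2. Chromosomes 11 and 4 followed with 108 and 107 members, and chromosomes 9 and 6 had 98 and 91. Per length between the first and last 30 min site of a chromosome, chromosome 19 was densest with 11.8 members per 10 Mb. Chromosome 11 had 9.13 and chromosome X 1.95 members per 10 Mb, against 5.70 over all chromosomes. The density of all 30 min sites was 27.6 per 10 Mb on chromosome 19, 36.1 on chromosome 11 and 6.78 on chromosome X, against 21.0 over all chromosomes. Chromosome 15 had nearly the site density of chromosome 11, at 35.5 per 10 Mb, with 7.63 members per 10 Mb.

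**Figure D1:**
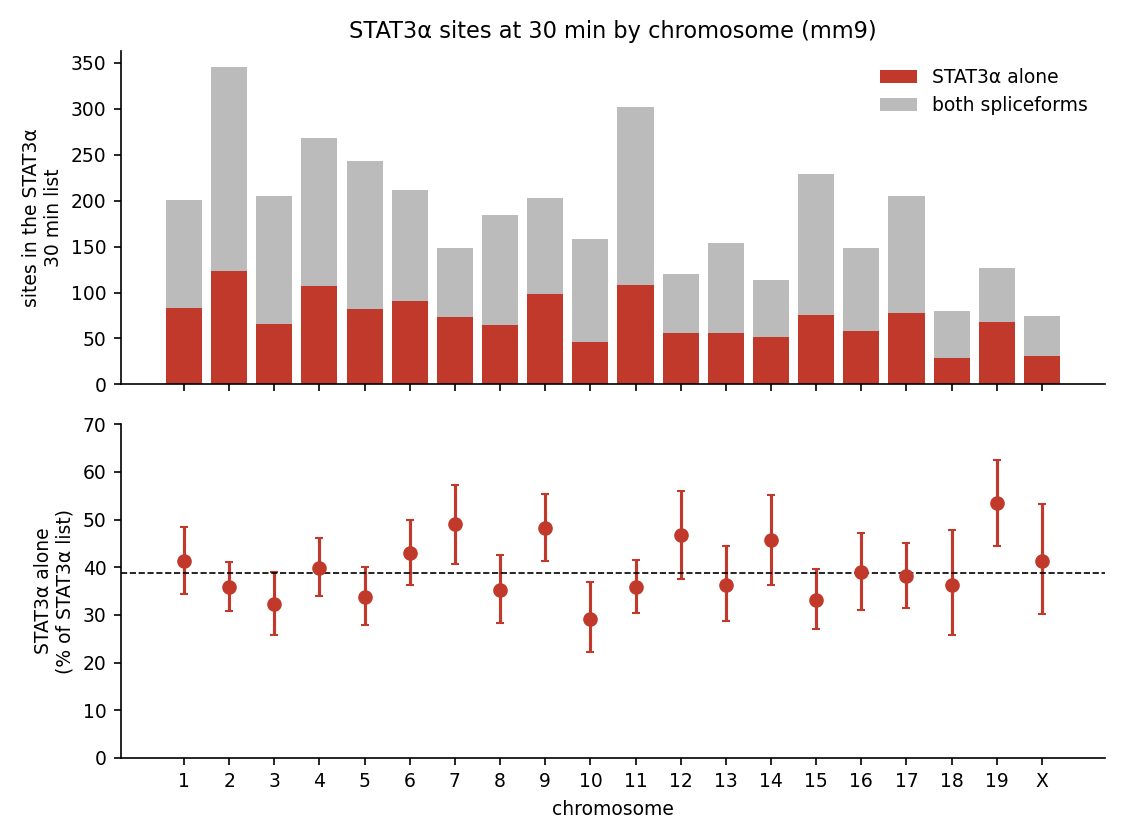
Upper panel, number of STAT3α sites at 30 min per chromosome, split into those listed for STAT3α alone (red) and for both spliceforms (grey). Lower panel, percentage of the STAT3α list that was STAT3α alone (points) with exact 95% binomial intervals over sites (bars), and the 38.8% of the whole list (dashed line). Chromosome 19 has the highest share, 53.5%, and chromosome 10 the lowest, 29.1%.

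The part of the STAT3α list that STAT3β did not share varied between chromosomes, as the plot of sites by chromosome shows. On chromosome 19, 68 of 127 STAT3α sites were members (53.5%, interval 44.5 to 62.4%). Chromosome 7 followed with 73 of 149 (49.0%, interval 40.7 to 57.3%) and chromosome 9 with 98 of 203 (48.3%, interval 41.2 to 55.4%). On these 3 chromosomes the interval lay above the 38.8% of the whole list. Chromosome 10 alone had an interval below it, with 46 members among 158 STAT3α sites (29.1%, interval 22.2 to 36.9%). The corresponding STAT3β-alone part of the STAT3β list ran the other way on these chromosomes. It was 35.2%, 38.2% and 30.5% on chromosomes 19, 7 and 9 and 49.5% on chromosome 10, against 41.5% of the whole STAT3β list. These shares derive from the lists that chose the members and are a description without a test. The overall number of single-list sites per chromosome moves with the length of each list there.

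The members were next placed relative to sites of both spliceforms, to describe whether they flanked common sites or stood apart. Within 10 kb of a site of both spliceforms lay 155 of 1447 members (10.7%, interval 9.16 to 12.4%), against 12.1% of all 30 min sites measured the same way. The share was thus near the background of all sites. The STAT3β-alone sites had 10.5% within the same distance, and the sites of both spliceforms had 14.1% within 10 kb of another site of both. The median distance from a member to the nearest site of both was 129 kb, with quartiles of 33.6 and 426 kb. STAT3β-alone sites lay at a median of 172 kb from a site of both, and sites of both at 119 kb from each other. Within 50 kb, 462 members (31.9%, interval 29.5 to 34.4%) had a site of both, compared with 396 of 1613 STAT3β-alone sites (24.6%, interval 22.5 to 26.7%) and 33.1% of sites of both. Over all 30 min sites the share within 50 kb was 30.2%, so the members were near the background at this distance too.

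**Figure D2:**
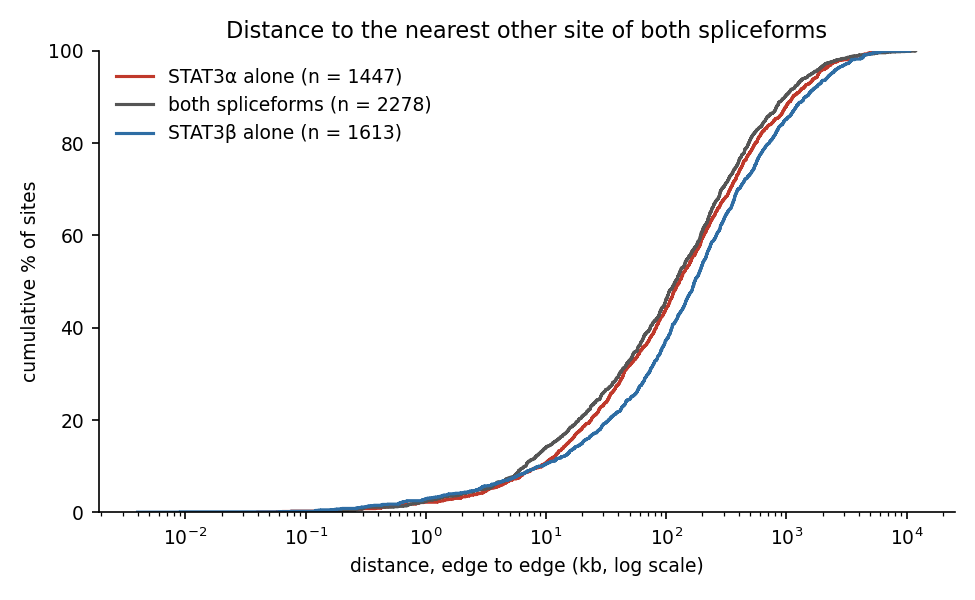
Cumulative percentage of 30 min sites (vertical axis) by edge-to-edge distance to the nearest other site of both spliceforms (horizontal axis, kb, log scale), for sites of STAT3α alone (red), both (grey) and STAT3β alone (blue). The STAT3α curve runs close to that of sites of both, with medians of 129 and 119 kb, and the STAT3β curve lies to the right of them in its middle part, with a median of 172 kb.

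The 5 members nearest to a site of both lay within 140 bp of it. On chromosome 13 the member at 98204814 to 98205213 was separated by 40 bp from the site of both at 98205254 to 98205653. On chromosome 7 the member at 148662529 to 148662928 began 58 bp after the site of both at 148662071 to 148662470. The others were at 67000375 to 67000774 on chromosome 10 (64 bp), 83025623 to 83026022 on chromosome 4 (76 bp) and 191551716 to 191552115 on chromosome 1 (140 bp). At the other extreme, the member at 65815223 to 65815622 on chromosome 16 lay 7.09 Mb from the nearest site of both, and a STAT3β-alone site was 941 kb away. Another 3 of the 5 farthest members were neighbours on chromosome 9, at 13632053 to 13632452, 13806739 to 13807138 and 14004586 to 14004985, between 5.37 and 5.75 Mb from the same site of both at 19379714 to 19380113. A STAT3β-alone site at 13698889 to 13699288 lay between the first and the second of them. The remaining one, at 25208853 to 25209252 on chromosome 4, had no 30 min site of any kind within 5.57 Mb.

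The number of sites of both around a member was also near that of all sites. Within 50 kb, 985 members (68.1%) had no site of both, 335 (23.2%) had 1, 85 (5.87%) had 2 and 42 (2.90%) had 3 or more. Over all 30 min sites, 3.07% had 3 or more. No site of both lay within 50 kb of 75.4% of STAT3β-alone sites and 66.9% of sites of both, and 3 or more lay around 2.11% and 3.86% of them. The largest number was 8, around the member at 117810963 to 117811362 on chromosome 11. Its nearest sites of both began at 117823497 and 117824769, the latter also in the STAT3β list at 180 min, and the site of both at 117830560 to 117830959, 19.2 kb away, was in both 180 min lists. The member itself was in neither. Another pair of members, starting at 117784693 and 117785831, lay 25.9 and 24.7 kb to its other side. Members with 5 sites of both within 50 kb were those at 51687667 to 51688066 on chromosome 11 and, on chromosome 12, at 70512992 to 70513391 and 70517765 to 70518164. The member at 124800076 to 124800475 on chromosome 4 stood in the middle of a cluster of 5 sites, with 2 sites of both on each side within 17.2 kb. These loci were chosen after their values were seen.

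Most STAT3α-alone sites were single. No other 30 min site lay within 10 kb of 1109 members (76.6%, interval 74.4 to 78.8%), and 338 members (23.4%) had one, against 23.5% of all 30 min sites. When sites with gaps of up to 10 kb were joined, 276 clusters of 2 or more sites held these 338 members. Members with sites of both formed 130 clusters with 137 members, members with STAT3β-alone sites formed 77 clusters with 84 members, and 23 clusters with 25 members held all 3 kinds. Only 46 clusters consisted of members alone, with 92 members, so every one of them was a pair. In clusters of 3 or more sites, members took an end position in 52 of 77 cases (67.5%), close to the 61.3% of all positions in those 61 clusters that were ends. The cluster with most members lay on chromosome 7 from 20401600 to 20417559, where 3 STAT3α-alone sites were interspersed with 3 sites of both over 16.0 kb and no STAT3β-alone site was listed. On chromosome 17 from 79938100 to 79950931 and on chromosome 19 from 34267045 to 34281916, STAT3α-alone and STAT3β-alone sites took turns, 2 of each, with no site of both between them. These clusters were also chosen after their values were seen.

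At the other end, 35 members (2.42%) had no other 30 min site within 1 Mb. They lay on 18 chromosomes, with 5 on chromosome X, the chromosome with the fewest sites per length, and 4 on chromosome 12. After the member on chromosome 4 described above, the most solitary were those at 60130752 to 60131151 on chromosome 8 (3.57 Mb) and at 35440402 to 35440801 on chromosome 7 (3.45 Mb). The share of sites without a neighbour within 1 Mb was 2.24% for sites of both and 3.72% for STAT3β-alone sites.

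Along the chromosomes, STAT3α-alone sites formed short unbroken runs. A run was 2 or more consecutive members, with no site of both or of STAT3β alone between them and no gap over 50 kb. There were 138 runs with 298 members (20.6%, interval 18.5 to 22.8%), while 23.2% of all 30 min sites were in a run of their own kind. Runs occurred on all 20 chromosomes. Of them, 119 had 2 sites, 16 had 3 and 3 had 4. Their median span was 18.0 kb and the median gap inside them 14.6 kb. Sites of both, which are more numerous, had 28.9% in runs of their own kind (interval 27.0 to 30.8%). STAT3β-alone sites had 17.6% (interval 15.8 to 19.6%, overlapping that of the members). The number of runs depends on how common a kind of site is, so these shares do not show a tendency to cluster.

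**Figure D3:**
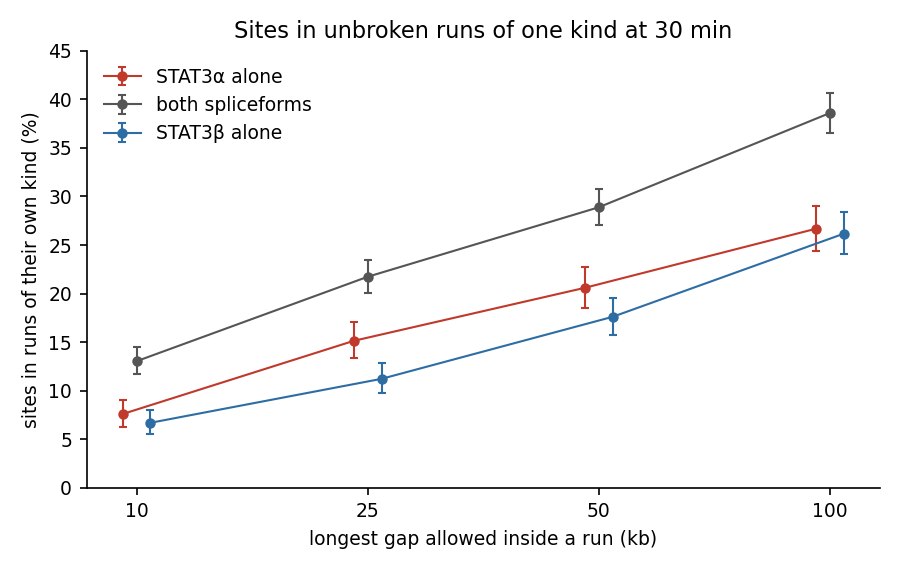
Percentage of sites in unbroken runs of their own kind (vertical axis) by the longest gap allowed inside a run (horizontal axis, kb), for STAT3α-alone sites (red), sites of both spliceforms (grey) and STAT3β-alone sites (blue), with exact 95% binomial intervals over sites. STAT3α-alone sites rise from 7.60% at 10 kb to 26.7% at 100 kb and stay below sites of both at each limit.

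The site that followed a member within 50 kb was again STAT3α alone in 160 of 465 cases (34.4%, interval 30.1 to 38.9%), STAT3β alone in 116 (24.9%) and of both in 189 (40.6%). After a STAT3β-alone site, the next was STAT3β alone in 34.4% and STAT3α alone in 24.6% of 448 cases. After a site of both, the next was STAT3α alone in 28.7% and STAT3β alone in 24.5% of 812 cases. Over all sites with a next site within 50 kb, that site was STAT3α alone in 29.2%, against the 34.4% after a member. At this limit of 50 kb, STAT3α-alone sites thus outnumbered STAT3β-alone sites as the next site after members and after sites of both. Within 10 kb of a member the next site was STAT3α alone in 55 and STAT3β alone in 58 of 184 cases. Over all sites with a next site within 10 kb, it was STAT3α alone in 26.0%. With no limit on distance the values after a member were 417 and 409 of 1446. After a site of both, the next site within 10 kb was STAT3α alone in 78 and STAT3β alone in 86 of 318 cases. With no limit these counts were 634 and 632 of 2270. The excess of STAT3α-alone sites was thus seen at 50 kb and not at the other limits after sites of both. The differences at these distances were described and not tested.

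The share of members in runs, 20.6% over all chromosomes, was highest on chromosome 6, where 34 of 91 members (37.4%) were in 15 runs. Chromosomes 12 (33.9%) and 19 (33.8%) followed. Shares by chromosome were not computed for the other kinds of site, so they cannot show whether members differ from them there. Chromosomes 13, 10 and X had 1 run of 2 members each, which was 3.57%, 4.35% and 6.45% of their members. Chromosome 5 had 82 members but only 4 of them in runs (4.88%). The density of members on chromosome 5, 5.50 per 10 Mb, lay between that of chromosome 12 (4.81) and that of chromosome 6 (6.27). By definition, a run is also broken by any other site between members. Beside its 82 members, chromosome 5 had 161 sites of both and 115 STAT3β-alone sites. Chromosome 6 had 121 and 62 beside 91 members, and chromosome 12 had 64 and 43 beside 56 members. How the share in runs depends on these counts or on density was not tested.

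Runs were ranked by their number of members and, where this was equal, by the shortest span, and the first 5 are described. The first lay on chromosome 7 from 119433496 to 119461399. Its 4 members were at 119433496 to 119433895, 119448652 to 119449051, 119459755 to 119460154 and 119461000 to 119461399, the last pair 845 bp apart. A STAT3β-alone site lay 151 kb before it, and the nearest site of both was 110 kb away, at 119571162 to 119571561. The next site after the run was a further STAT3α-alone site 60.5 kb away, past the gap limit.

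On chromosome 4, 4 members lay between 132581242 and 132612192, starting at 132581242, 132595036, 132597791 and 132611793. Their gaps were 13.4, 2.36 and 13.6 kb. A site of both at 132651046 to 132651445 followed 38.9 kb after this run, and a STAT3β-alone site preceded it by 102 kb.

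The third run of 4 was on chromosome 6 from 135273255 to 135312907, with members starting at 135273255, 135283879, 135291116 and 135312508. It lay farthest of the 5 from a site of both. Both flanking sites were themselves STAT3α alone, 253 kb before and 1106 kb after it, and the nearest site of both was 1287 kb away. In the whole megabase from 135 to 136 Mb on this chromosome, 5 STAT3α-alone sites were listed at 30 min and no other site.

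The 2 remaining runs were the ones with the shortest span among the 16 runs of 3 members, and both lay near common sites. On chromosome 6, members at 122760478 to 122760877, 122761232 to 122761631 and 122776245 to 122776644 followed a site of both by 14.6 kb. The first and second of them were 354 bp apart. On chromosome 17, members at 35895796 to 35896195, 35908567 to 35908966 and 35913680 to 35914079 lay between sites of both, 6.10 kb after one and 25.9 kb before the next.

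**Figure D4:**
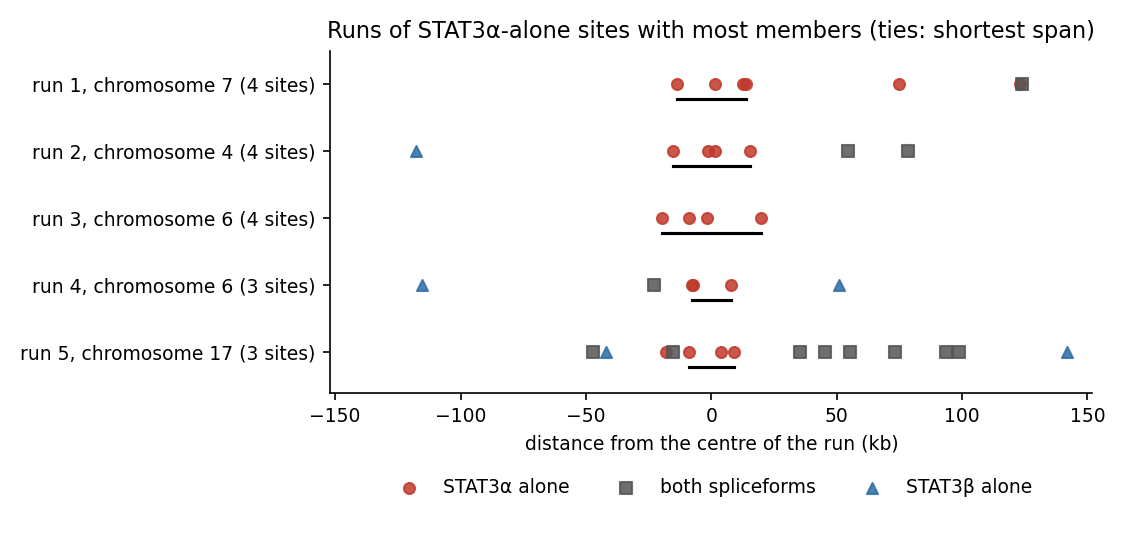
The first 5 runs of STAT3α-alone sites, ranked by number of sites and then by shortest span (rows, the run underlined in black), with all 30 min sites within 150 kb of the centre of the run (horizontal axis, kb), as red circles for STAT3α alone, grey squares for both spliceforms and blue triangles for STAT3β alone. The run of 4 on chromosome 6 has no other site in the window, while the run of 3 on chromosome 17 is surrounded by sites of both.

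The other 14 runs of 3 spanned 21.9 to 77.2 kb and were spread over 10 chromosomes, with the nearest site of both 11.1 to 716 kb away. The widest was on chromosome 11 from 96608691 to 96685867. Over all 138 runs, a site of both lay within 10 kb of a member in 14 (10.1%) and within 50 kb in 49 (35.5%). In 70 runs (50.7%) the nearest site of both was more than 100 kb away. Counted singly, 10.7% of all members had a site of both within 10 kb and 31.9% within 50 kb, and 55.8% had none within 100 kb. A run is counted by its nearest member, so the 2 sets of shares are not strictly alike. Some members of runs were nearly adjacent. The closest pair was on chromosome 2, where intervals at 128564257 to 128564656 and 128564714 to 128565113 were separated by 57 bp, and on chromosome 9 those at 47511074 to 47511473 and 47511591 to 47511990 were 117 bp apart. In all, 13 of 160 gaps inside runs were under 1 kb.

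The 0 and 180 min lists had no part in choosing the members. None of the 1447 STAT3α-alone sites was listed at an exact position in any of these 4 lists. For each 180 min list, a count of 0 allows a share of up to 0.207% (3 counts of 1447, counting error only). The 0 min lists also held 6 peaks of rounded position that could not be matched, so these limits do not hold for them. At 180 min the STAT3α list held 40 sites, of which 35 were sites of both at 30 min, 2 were STAT3β alone at 30 min, 3 were in neither 30 min list and 0 were members. The STAT3β list of 120 sites held 112 sites of both, 6 STAT3β-alone sites, 2 sites in neither and 0 members. Over all 30 min sites, 0.693% were listed for STAT3α and 2.21% for STAT3β at 180 min. Both shares lay above the upper bound of the exact interval for the members, 0.255%. They came mostly from sites of both, of which 1.54% and 4.92% were listed. STAT3β-alone sites had 0.124% (interval 0.0150 to 0.447%) and 0.372% (interval 0.137 to 0.808%), overlapping the interval of the members. These differences were not tested. At 0 min the 7 STAT3α peaks of exact position comprised 4 sites of both, 1 STAT3β-alone site and 2 sites in neither list, and the 8 such STAT3β peaks comprised 7 sites of both and 1 in neither. Over all 30 min sites 0.0937% were in the STAT3α and 0.131% in the STAT3β list at 0 min, counted at exact positions. Even without the peaks of rounded position, the interval for 0 of 1447 members reaches 0.255%, above both shares. The members are thus not shown to differ from all sites at 0 min. At exact positions the STAT3α-alone sites were thus listed at 30 min only. STAT3β-alone sites were found in 3 of the same 4 lists, but with only 1, 2 and 6 of 1613 sites. In the STAT3α list at 0 min this was 0.0620% (interval 0.00157 to 0.345%). In each list, at exact positions, the interval of the STAT3β-alone sites overlapped that of the members. Absence from these lists is therefore not shown to be particular to the members. The difference between the 2 sets was not tested.

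Another 6 peaks at 0 min (2 for STAT3α and 4 for STAT3β) were known only to the nearest Mb. Within 0.5 Mb of 5 of them lay 17 members in all, 6 of these around 133 Mb on chromosome 4 and 5 around 118 Mb on chromosome 11. Whether one of these members was listed at 0 min cannot be read from the rounded positions. Sites of both were present around each of the 6, for example 13 around 118 Mb on chromosome 11.

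The distance of members to the sites listed at 180 min was described next. Within 50 kb of a site of either 180 min list lay 34 members (2.35%, interval 1.63 to 3.27%), against 2.46% of all 30 min sites that were not themselves listed at 180 min. The share was 3.15% for sites of both and 1.62% for STAT3β-alone sites, counted in the same way. The median distance to the nearest 180 min site was 5353 kb for members, 5335 kb for sites of both and 6278 kb for STAT3β-alone sites. In distance to late sites the members were thus near the background.

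**Figure D5:**
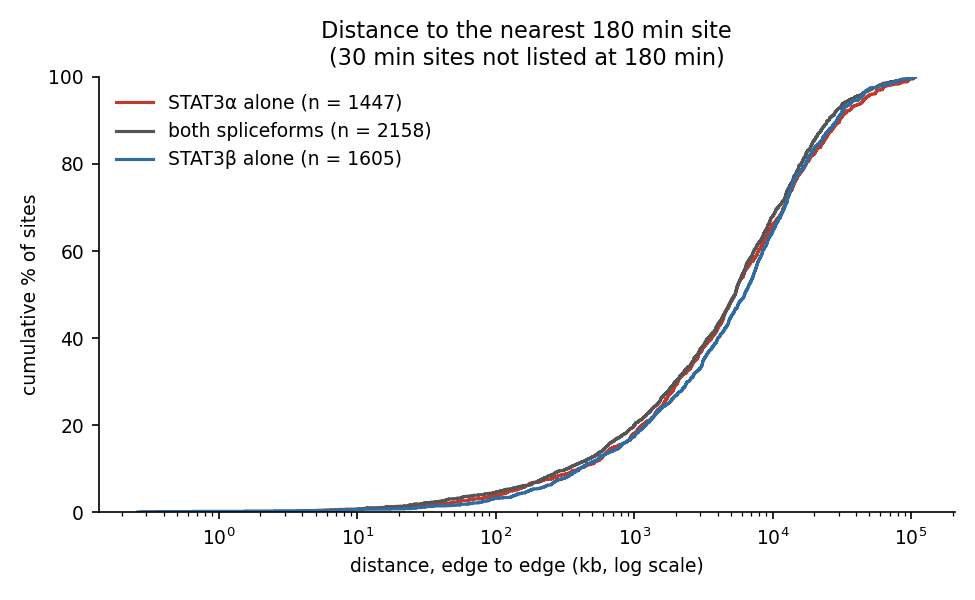
Cumulative percentage of 30 min sites not listed at 180 min (vertical axis) by edge-to-edge distance to the nearest site of either 180 min list (horizontal axis, kb, log scale), for STAT3α-alone sites (red), sites of both spliceforms (grey) and STAT3β-alone sites (blue). The curves run close together, with medians of 5353, 5335 and 6278 kb.

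The member nearest to a late site was on chromosome 15 at 102078039 to 102078438, 288 bp after the site at 102077351 to 102077750, which was of both spliceforms at 30 min and in the STAT3β list at 180 min. On chromosome 10 the member at 80391276 to 80391675 lay 625 bp before a site of the same history at 80392301 to 80392700. The third was on chromosome 5, at 32437975 to 32438374, 2.14 kb from a site at 32435435 to 32435834 that was of both at 30 min and in the STAT3α list at 180 min. The remaining members of the 5 were on chromosome 17, at 17994351 to 17994750 and 27957559 to 27957958, 4.71 and 4.89 kb from sites of both that were listed for STAT3β at 180 min. All 5 neighbours were sites of both at 30 min, as were 35 of the 40 STAT3α and 112 of the 120 STAT3β sites at 180 min. Of the 11 members within 10 kb of a late site, 4 (0.276% of members) were near one of the STAT3α list. Near one of the longer STAT3β list were 10 (0.691%). Among sites not listed at 180 min, these shares were 0.232% and 0.695% for sites of both. For STAT3β-alone sites they were 0.187% and 0.685%, so the members were near the other kinds.

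The members near the sites listed before the cytokine were also counted. Of the 11 sites of exact position at 0 min, 1 had a member within 10 kb. This was the site at 87500257 to 87500656 on chromosome 8, with the member at 87509436 to 87509835 at 8.78 kb and 4 sites of both within 50 kb of that member. The next nearest members, at 5005170 to 5005569 on chromosome 19 and 6807503 to 6807902 on chromosome 15, lay 15.8 and 16.3 kb from the 0 min sites at 4988979 to 4989378 and 6824175 to 6824574. Within 1 Mb of a 0 min site of exact position lay 24 members. The same counts were not made for sites of both or STAT3β-alone sites. These values therefore cannot show whether members lay nearer to or farther from 0 min sites than the other kinds.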

How the data were processed

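The data were 6 ChIP-seq peak lists from 8 samples, of which 2 input samples entered no comparison. The deposited lists give start and end positions on mm9 and no score. Tools named in the submitters' processing notes are MACS2 2.1.1.20160309, HOMER 4.9, STAR 2.5.0a, Trim Galore 0.4.2 and bedtools, with roles and peak threshold not given in the sources used here. Samples were made in duplicate and their reads merged, per the labels, so 1 list stands for each group and depth is unknown. In the 0 min lists, positions from 100 Mb upwards had only 3 digits, and these 6 peaks were left out except where named.

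Starts were converted to count from 1. Distances are edge to edge, and runs and clusters were built from all 30 min sites in genome order. The distance and run functions were tested on simulated data. Each group had 1 list, so no test was run, and shares carry exact binomial intervals. The members and the lists of sites and genes were chosen with earlier results of these data known. Sites were named by rule: the 5 runs with most members (ties by shortest span), the 5 members nearest to and the 5 farthest from a site of both, and the 5 nearest to a 180 min site, plus any member in a 0 or 180 min list. Loci in clusters, solitary sites, close pairs and sites near 0 min peaks were chosen after their values were seen. The gene table at hand is of GRCm38, and 30 min sites on 6 chromosomes lie past its last gene, so it was not used, and the planned analyses of gene lists, genomic location and the STAT motif were not run. Python 3.11.15, scipy 1.17.1, numpy 2.4.6 and matplotlib 3.10.9 were used.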

Additional observations from a re-analysis of the deposited data

How the results depend on the processing

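Of 20 alternatives for 4 results, 12 moved the value by less than the set limits (1.5 times for a count, the binomial interval for a share). The others changed the distance that defines the value. Members with a site of both spliceforms nearby were 10.7% at 10 kb, 2.21% at 1 kb, 6.91% at 5 kb, 31.9% at 50 kb and 44.2% at 100 kb. Members in runs numbered 298 with gaps up to 50 kb, 110 with gaps up to 10 kb and 694 with no limit on the gap. No member was listed at 0 or 180 min at an exact position, 2 had a listed site within 1 kb and 11 within 10 kb. Analyses that need a genome or annotation of mm9 (location, sites per gene, the STAT motif) were not run. No paired analysis was possible because each group had 1 list. Unknown depth limits any reading of a missing site.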

Other observations

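On the scale of 1 Mb, the 1447 STAT3α-alone sites fell in 873 bins, 527 (60.4%) with 1 member, 211 (24.2%) with 2 and 135 (15.5%) with 3 or more. A site of both spliceforms was listed in 621 of these bins (71.1%) and a STAT3β-alone site in 488 (55.9%), while 143 bins (16.4%) held members only. The same shares were not computed for bins of the other kinds of site, so these values cannot show whether the members differ from them. The bin with most members ran from 70 to 71 Mb on chromosome 14, with 8 members, 3 sites of both and no STAT3β-alone site. The bin from 70 to 71 Mb on chromosome 12 had 7 members and 7 sites of both, again with no STAT3β-alone site, and that from 84 to 85 Mb on chromosome 17 had 7 members, 7 sites of both and 8 STAT3β-alone sites. In 5 bins, 3 or more members were the only 30 min sites. These were 9 to 10 Mb on chromosome 3, 135 to 136 Mb on chromosome 6 and 116 to 117 Mb on chromosome 9, with 5 members each, 131 to 132 Mb on chromosome 4 with 4, and 14 to 15 Mb on chromosome 9 with 3. The bins were chosen after their values were seen and are given as counts, with no test.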
